A study of Homo sapiens with 6 samples.

Results

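The genes described here encode the chaperonins of the human cell: the 8 subunits of the cytosolic TRiC complex (TCP1, CCT2, CCT3, CCT4, CCT5, CCT6A, CCT7 and CCT8), mitochondrial HSP60 (HSPD1) and its partner HSP10 (HSPE1). They were taken as a group by symbol, with earlier results of these data known, and all 10 were found among the 11225 genes with a named transcript in the data. For each gene the transcript with the most depth was used. The data are ribosome profiling, the sequencing of messenger fragments shielded by ribosomes, from the established melanoma cell line CHL-1. The 3 groups were parental CHL-1 cells, CHL-1 cells in which CRISPR was aimed at SNORD50A/B (a pair of small nucleolar RNA genes; here the edited cells), and CHL-1 cells kept for 20 minutes in 10 mM AZC (L-azetidine-2-carboxylic acid, which resembles proline) and 20 µM MG132, which blocks the proteasome (here the treated cells). A line edited at a control site, and cells with AZC or MG132 alone, were not analysed here, and the sources used here do not say how many edited clones there were. Each group had 2 libraries, 1 of them labelled as having ribosomal RNA removed, and they are deposited as 1 table per group. Replicate spread cannot be had from such tables, so no difference in this text has been tested, and each sets 1 table against another.

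TRiC, also called CCT, is a double ring in which each ring is built from one copy of each different subunit, and it folds actin, tubulin and many other cytosolic proteins in a chamber that opens and closes with ATP. HSP60 forms a ring of identical subunits in the mitochondrial matrix, and HSP10 is the lid of that chamber. HSPD1 and HSPE1 lie head to head on the genome around a shared promoter, and both are known as heat shock genes. AZC is built into proteins in place of proline and disturbs their folding, while MG132 stops misfolded proteins from being degraded.

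Promoter windows of RefSeq (GRCh38.p14, 250 bases before to 50 bases after a transcription start) were at hand for 9 of the 10 genes, all but CCT6A, in 12 windows. They were searched for the heat shock element, the motif bound by the heat shock factor HSF1, because AZC and MG132 burden protein folding. The motif searched was TTCNNGAANNTTC, on both strands and with overlaps allowed. It was found in 1 of the 12 windows, a window of HSPD1 on the minus strand at chr2:197499791-197500090, where 2 overlapping matches filled bases 6 to 23. Of all 35116 windows in the table, 172 held the motif, or 0.490%. The first 30 bases of that HSPD1 window are shown with the matched bases in capitals.
HSPD1: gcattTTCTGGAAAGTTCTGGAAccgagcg
The HSPE1 window, chr2:197500129-197500428 on the plus strand, and the other HSPD1 window, chr2:197500225-197500524 on the minus strand, overlap by 204 bases, which shows the head-to-head arrangement. The matched bases lie close to position 197500090, the end of their window that faces the HSPE1 window. They fall just outside the HSPE1 window, which begins at 197500129, so its lack of a match rests on where the window begins. A match of letters is a description and does not show that a factor was bound.

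Depth is the number of sequenced bases summed over a bin, and each transcript had 400 bins, of which 100 covered the 5′ UTR, 200 the coding sequence and 100 the 3′ UTR. Normalised depth is this number per 1000000 of the table's total. Where 3 values follow each other below, they stand for the parental, the edited and the treated cells in that order. The totals were 473.7, 586.5 and 367.3 in units of 1000000. The chaperonin genes were well covered, with a mean depth per coding bin from 370.1 (TCP1 in treated cells) to 5748 (HSPD1 in edited cells). Of 8 melanocyte genes, 5 or 6 were listed per table, with a summed coding normalised depth of 363.3, 344.3 and 295.6. Most of it was SOX10, the neural crest transcription factor, at 327.7, 293.6 and 255.1. The pigment cell antigen MLANA was at or below 0.00328, and TYR and TYRP1 were looked up but not listed for any group. Markers of keratinocytes, fibroblasts and blood cells were listed in 1, 0 and at most 1 of 4 genes, with summed normalised depths of at most 1.05, 0.0 and 2.26.

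Within the TRiC complex the subunits did not have equal footprint levels. Levels of different genes were compared as coding normalised depth per kb of coding length. CCT6A, the zeta subunit, had 485.1, 449.0 and 359.4. CCT3 (gamma) had 447.7, 349.6 and 425.7. These 2 subunits were the highest of the 8 in each table, with CCT6A first in parental and edited cells and CCT3 first in treated cells. CCT4 (delta) followed at 313.6, 257.3 and 303.4, and CCT5 (epsilon) at 298.3, 286.6 and 266.3. CCT2 (beta) stood at 259.8, 257.0 and 210.4, and CCT7 (eta) at 250.8, 244.1 and 211.3. These 4 subunits made up the middle of the range, and neither CCT4 and CCT5 nor CCT2 and CCT7 kept one order over the 3 tables. CCT8 (theta) had 205.0, 194.3 and 182.8. TCP1 (alpha, the subunit that gave the complex its older name) had 137.0, 149.2 and 120.5 and was the lowest in all 3 tables.

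The highest subunit stood 3.54 times above the lowest in parental, 3.01 times in edited and 3.53 times in treated cells. The median of the 8 was 279.1, 257.1 and 238.8, and the SD of their log2 levels was 0.59, 0.49 and 0.58. Of the 7 neighbouring pairs in this order, 4 had ranges over the 3 tables that did not overlap, namely CCT3 above CCT4, CCT5 above CCT2, CCT7 above CCT8 and CCT8 above TCP1. The other 3 pairs changed order in 1 table each. Coding lengths were estimated from the way bases fall into the 200 bins and ran from 1574 bases (CCT2) to 1672 (TCP1) for the subunits. Any other length in the range searched would move a level by at most 12.8%. That is less than the steps from CCT3 to CCT4, from CCT7 to CCT8 and from CCT8 to TCP1 in each table, but CCT5 stood only 1.15, 1.12 and 1.27 times above CCT2.

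**Figure D1:**
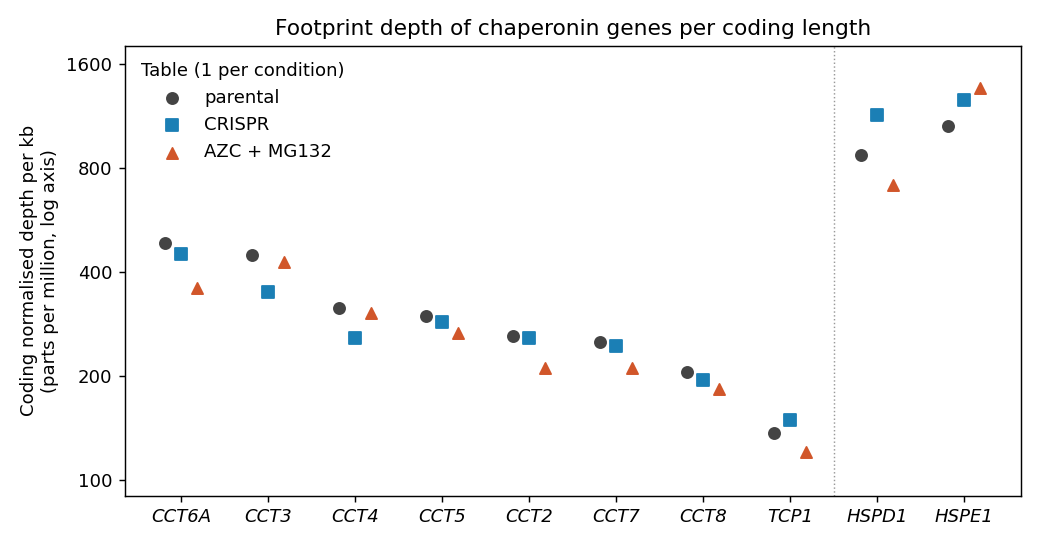
Coding normalised depth per kb (per 1000000 of the table's total, log axis) of the 8 TRiC subunits and of HSPD1 and HSPE1, with 1 point per table (parental, CRISPR for edited, AZC + MG132 for treated cells). The subunits run from CCT6A, at 485.1 in parental cells, to TCP1, at 137.0, and both mitochondrial chaperonin genes lie above all 8 in each table.

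The mitochondrial pair had higher levels than any TRiC subunit in all 3 tables. HSPD1 stood at 869.5, 1138 and 710.7 per kb, which is 3.12, 4.43 and 2.98 times the TRiC median. HSPE1, with a coding sequence of only about 308 bases, stood at 1054, 1259 and 1364, or 3.78, 4.90 and 5.71 times that median. The ratio of HSPD1 to HSPE1 was 0.825, 0.904 and 0.521, so the pair was least even in treated cells. The RefSeq gene table lists 22 pseudogenes named after HSPD1, 28 after HSPE1 and 5 after CCT6A, and reads shared with such copies would make the values of these 3 genes uncertain.

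Treated were set against parental cells to see how ribosome occupancy of the chaperonin messengers stood after a short folding stress. Past 2-fold were 0 of the 10 genes, where 5.35% of the 7277 genes compared were past it, 0.728% higher and 4.62% lower. With a level minimum 4 times higher, nearer the depth of the chaperonin genes, 66 of 3183 genes were past it. The log2 ratios of coding depth of the TRiC subunits lay between -0.43 (CCT6A) and -0.05 (CCT4), with a median of -0.17 against -0.15 for all genes. The values were -0.18 for TCP1, -0.30 for CCT2, -0.07 for CCT3, -0.16 for CCT5, -0.37 for CCT7 and -0.17 for CCT8. All 8 were below 0, as were 64.8% of all genes. The count depended on the scaling: with the coding total as the scale, or with the median of all genes set to 0, 6 of 8 were below 0 and CCT3 and CCT4 were above it. Those scalings moved every gene up by 0.13 and 0.15. Leaving the most abundant 1% of transcripts out of the total moved them up by 0.07 and left 7 of 8 below 0, with CCT4 above.

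HSPD1 and HSPE1 stood on opposite sides of 0 in treated cells. The coding normalised depth of HSPD1 was 1497 in parental and 1224 in treated cells, a log2 ratio of -0.29. That of HSPE1 was 324.6 and 420.2, a log2 ratio of 0.37, at percentile 89.9 of all genes compared. On the scale of the table total HSPE1 was thus the only one of the 10 chaperonin genes above 0.

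In treated cells the ratio of each chaperonin gene was lower at the back of the coding sequence than at the front. In the first 100 coding bins the TRiC log2 ratios of treated to parental cells lay between -0.23 (CCT6A) and 0.25 (CCT3), with a median of 0.04, which is also the median of all genes. There 3 of 8 subunits were below 0, against 46.9% of all genes. In the last 100 bins they lay between -0.67 (CCT6A) and -0.19 (CCT4), with a median of -0.51 against -0.39 for all genes, and 8 of 8 were below 0, against 77.2%. HSPD1 had 0.03 in the first and -0.70 in the last 100 bins. HSPE1 was above 0 in both, at 0.45 and 0.28.

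**Figure D2:**
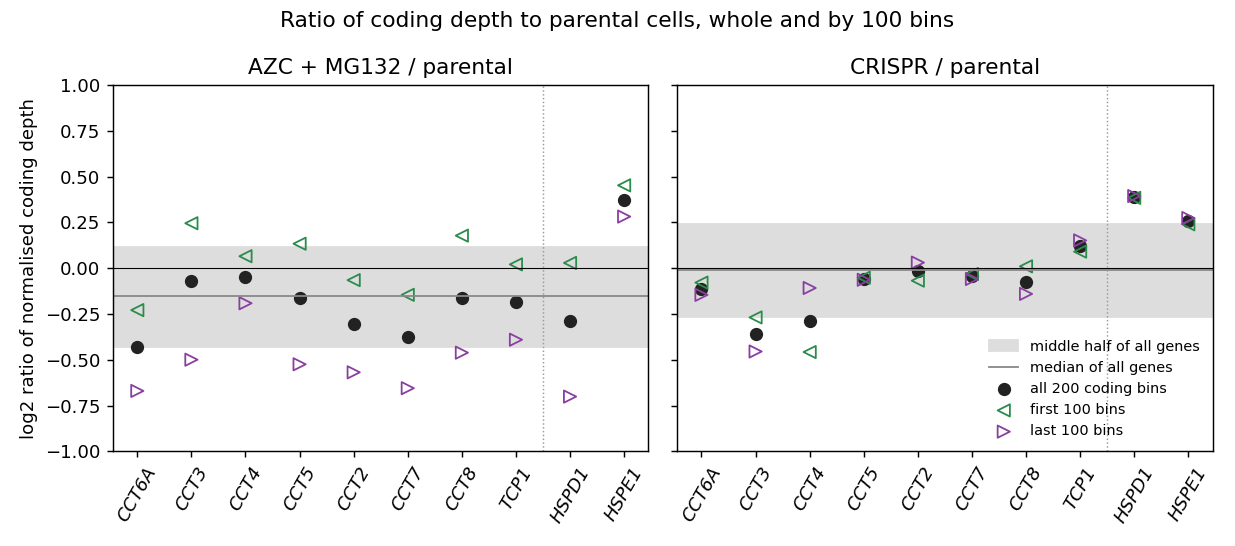
Log2 ratio of normalised coding depth to parental cells for each gene, over all 200 coding bins (filled circles), the first 100 and the last 100 (triangles), with treated cells (AZC + MG132) on the left and edited cells (CRISPR) on the right. The grey band spans the central part of all genes, from their lower to their upper quartile, and the grey line is their median. On the left the last 100 bins lie below the first 100 in all 10 genes, while on the right both lie close together for HSPD1 (0.38 and 0.39) and for most subunits.

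The share of depth at the start of the coding sequence was measured as the 5′ share, the mean depth of the first 20 coding bins over the mean of all 200, so that 1 means an even start. CCT8 had 0.352, 0.484 and 1.03, a log2 ratio of 1.54 between treated and parental cells, but its first 10 bins were nearly empty in each table. Its value rests on the later 10 of the 20 bins, at 0.70, 0.97 and 2.02 times the gene's mean. CCT3 had 0.950, 1.32 and 2.27 (log2 ratio 1.26), and CCT2 had 0.650, 0.706 and 1.53 (1.24). These 3 subunits were at least 2-fold higher. CCT4 had 1.03, 1.10 and 1.84 (0.83), and CCT5 had 0.782, 0.838 and 1.38 (0.82). CCT6A had 0.505, 0.534 and 0.852 (0.75), TCP1 had 0.585, 0.718 and 0.984 (0.75), and CCT7 had 0.830, 0.935 and 1.25 (0.59). In each of the 8 subunits treated cells therefore held the highest of the 3 values. HSPD1 had 1.11, 0.959 and 2.25 (1.02) and HSPE1 had 0.267, 0.498 and 0.624 (1.22).

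Of the 8 subunits 3 had a 5′ share at least 2-fold higher in treated than in parental cells, and with HSPD1 and HSPE1 it was 5 of 10, beside 27.0% of all genes. All 8 subunits had a ratio above 0, beside 78.8% of all genes, and their median was 0.83 against 0.59. Other chaperone lists, described below, had medians on both sides of the TRiC value. The median was 0.996 for cytosolic chaperones induced by HSF1, 0.73 for mitochondrial chaperones and proteases, and 0.49 for prefoldin and TRiC cofactors. CCT7 has 2 transcripts whose summed depth ties within the rounding, and the one chosen, NM_001166285, counts as 5′ UTR some depth that NM_006429 counts as coding. With NM_006429 the 5′ share of CCT7 was 0.756, 0.779 and 1.63 and its log2 ratio 1.11 in place of 0.59. For HSPE1 the first 20 bins span only about 30.8 bases, about the length of a single footprint, against 157.4 to 172.2 bases in the other genes. With the first 40 bins the HSPE1 ratio was 0.46, so its value in particular rests on the window.

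Over 10 segments of 20 coding bins each, treated cells had more of the TRiC depth at the front and less at the back. Segment 1 is the window of the 5′ share, and the median depth of the 8 subunits there, relative to each gene's mean, was 0.716, 0.778 and 1.31. In segment 8 it was 0.960, 0.828 and 0.685. As log2 ratios of treated to parental cells the TRiC medians were 0.83, 0.43 and 0.21 in segments 1 to 3, with 8, 6 and 8 of 8 subunits above 0. They were -0.19 in segment 7 and -0.33 in segment 10, with 0 of 8 above 0 in both. HSPE1 kept a jagged profile in all 3 tables, low in segment 6 (0.389, 0.440 and 0.375 of its mean) and high in segment 8 (1.54, 1.36 and 1.46).

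**Figure D3:**
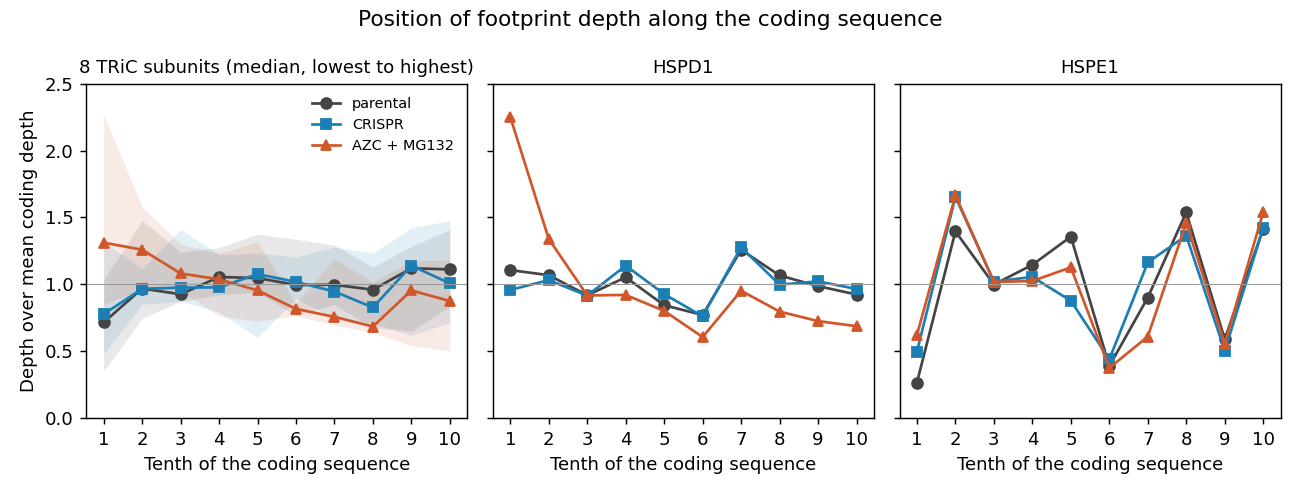
Mean depth in each of 10 segments of the coding sequence over the gene's mean coding depth (vertical axis, ratio), for the 8 TRiC subunits (median as points, lowest to highest as bands), HSPD1 and HSPE1, with 1 line per table. The treated line (AZC + MG132) starts above the other lines in TRiC (1.31 against 0.716 and 0.778) and HSPD1 (2.25 against 1.11 and 0.959) and ends below them, while the 3 HSPE1 lines share their peaks in segments 2 and 8 and their dips in segments 6 and 9.

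Single positions also stood out. In CCT4 the highest coding bin was bin 40 in parental and edited cells, at 2.82 times the gene's mean in both, but bin 1, beside the start codon, at 5.74 times in treated cells. In CCT3 it was bin 195 in parental cells (2.36 times) and bin 2 in edited (2.49) and treated (4.07) cells. In HSPD1 it was bin 135 in parental and edited cells and bin 4, at 3.42 times, in treated cells. The peak of CCT6A was bin 199, next to the stop codon, in all 3 tables (3.11, 3.46 and 3.86 times), and that of CCT2 was bin 48 or 49 (2.37, 2.74 and 3.20 times). The highest bins of TCP1 (89, 123 and 23) and CCT7 (150, 178 and 16) differed in each table, that of CCT5 (97, 198 and 97) differed in edited cells and that of CCT8 (138, 14 and 14) in parental cells. CCT8 differed from the rest at its start, since 9, 10 and 1 of its first 10 coding bins were at 0, while the other 9 genes had depth in all 200 bins of each table. Across the 200 bins of a gene, whose neighbours share reads, Pearson's r of log2 depth was 0.60 (CCT3) to 0.96 (HSPD1) between parental and edited cells. Between parental and treated cells it was 0.47 (CCT3) to 0.91 (HSPE1), and it was the lower of these 2 values in all 10 genes. Between edited and treated cells r was 0.49 (CCT4) to 0.92 (HSPE1), and in CCT7 alone, at 0.79, this was the highest of the 3 values. For r the depth of a bin was not divided by its width, and the widths of a gene's bins are the same in every table. HSPE1 has only about 30.8 bases per 20 bins, so its r cannot be ranked against the other genes. The part of bin width in r was not tested. The treated cells also had the smallest total depth, and its part in these values was not tested.

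Depth in the 5′ UTR, given as a share of the transcript's depth, was also larger in treated cells. CCT6A had 0.307%, 0.756% and 2.31%, and CCT2 had 0.573%, 1.27% and 3.71%. Their log2 ratios of treated to parental share, 2.91 and 2.70, were at percentiles 99.9 and 99.7 of the 4952 genes with enough 5′ UTR depth (at least 300). Both ratios rest on a small parental 5′ UTR depth, 1149 bases for CCT6A and 1118 for CCT2, against 5083 and 4700 in treated cells. The CCT2 value belongs to the transcript chosen, NM_006431: on NM_001198842 its shares were 6.17%, 6.64% and 13.7%. CCT4 had 2.38%, 2.74% and 8.33%, a ratio of 1.81, and TCP1 2.80%, 1.70% and 6.54%, a ratio of 1.22. On the other TCP1 transcript, NM_001008897, the shares were 21.3%, 22.7% and 32.3%, which is less than 2-fold. CCT5 had 1.23%, 0.963% and 3.07% (1.32), and CCT3 had 1.56%, 1.83% and 3.25% (1.06). CCT7 had 6.53%, 7.15% and 15.5% (1.25), a region that holds coding bases of its other transcript. On NM_006429 the CCT7 shares were 0.561%, 0.762% and 1.88%. On the transcripts chosen, all 7 subunits with enough depth were at least 2-fold higher, beside 31.9% of all genes, and their median ratio was 1.32 against 0.65. CCT8, with 0.0889%, 0.0% and 0.0176%, was too low to compare. Over all transcripts the 5′ UTR share was 10.0% in parental and 15.7% in treated cells, and the part of this difference over the whole table in the chaperonin values was not tested.

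HSPD1 had 5′ UTR shares of 0.379%, 0.285% and 1.93%, a log2 ratio of 2.35 between treated and parental cells, but the value belongs to the transcript chosen, NM_002156. On its other transcript, NM_199440, whose coding depth was 709395 against 709324 in parental cells, the shares were 0.220%, 0.208% and 0.388%. HSPE1 had 5.72%, 6.28% and 9.21%, a log2 ratio of 0.69, close to the median of all genes.

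**Figure D4:**
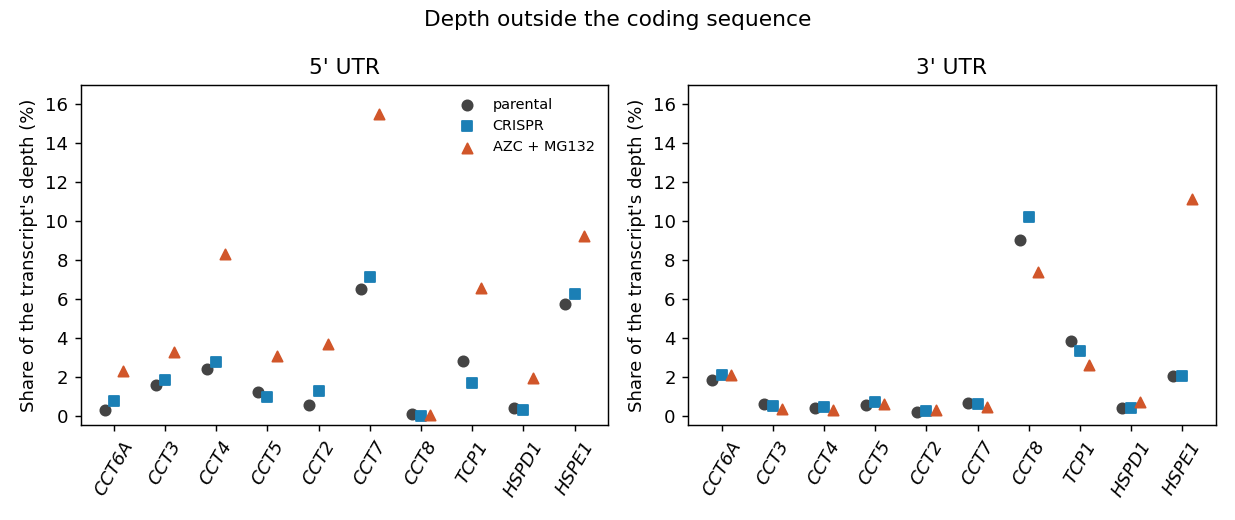
Share of each transcript's depth (percent) in the 5′ UTR (left) and in the 3′ UTR (right), with 1 point per table. In the 5′ UTR the treated point (AZC + MG132) is the highest in all genes but CCT8, and in the 3′ UTR HSPE1 stands apart at 11.1% in treated cells against 2.03% and 2.05%.

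In the 3′ UTR only HSPE1, 1 of the 10 genes, was past 2-fold in share between treated and parental cells. Its 3′ UTR held a depth of 3389, 5072 and 21537, which is a normalised depth of 7.15, 8.65 and 58.6. As a share of the transcript this was 2.03%, 2.05% and 11.1%. The log2 ratio of treated to parental share, 2.45, was at percentile 98.1 of 2415 genes, of which 27.0% were at least 2-fold higher. The added depth lay over most of the 3′ UTR and not only beside the stop codon, but it was not even. Past the first 10 bins its highest stretch was bins 29 to 43, at 0.92 to 1.63 per bin, and it was 0.05 at bin 90. Bins with any depth numbered 32, 32 and 97 of 100, and the normalised depth beyond the first 10 bins was 0.950, 0.608 and 44.3. HSPE1-MOB4, a readthrough transcript that joins HSPE1 to the next gene and can share its reads, held 186.9, 228.9 and 257.8 in its first 100 coding bins but 13.8, 18 and 15.4 in its last 100. Over all transcripts the 3′ UTR share was 4.38% in parental and 6.15% in treated cells, and whether the HSPE1 depth came from ribosomes on this messenger was not tested. CCT8 had the highest 3′ UTR shares of the subunits, 9.02%, 10.2% and 7.36%, with 89.1%, 89.9% and 94.9% of that depth beyond the first 10 bins.

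**Figure D5:**
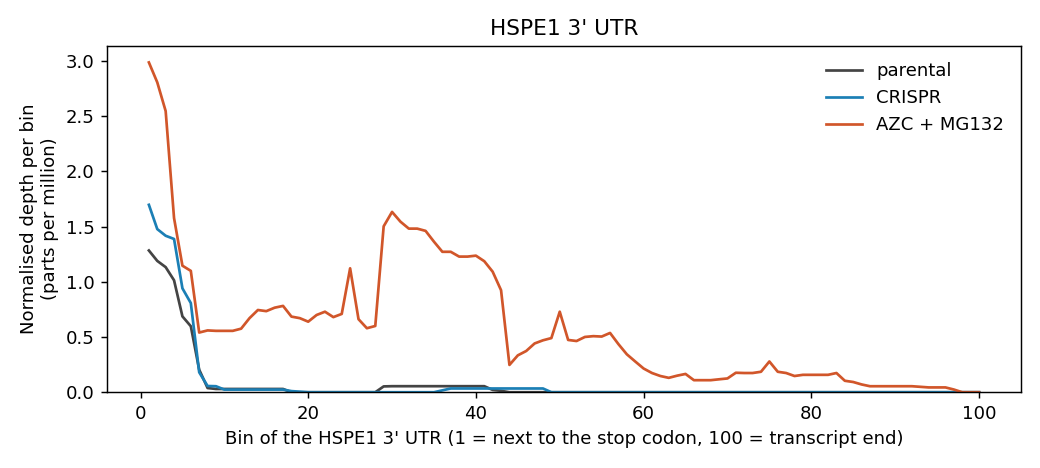
Normalised depth per bin (per 1000000 of the table's total) along the 100 bins of the HSPE1 3′ UTR, from the stop codon to the transcript end, with 1 line per table. All 3 lines start high beside the stop codon, and beyond the first 10 bins only the treated line (AZC + MG132) stays above the axis over most of the UTR, with 44.3 in sum against 0.950 and 0.608.

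Edited cells were set against the same parental table, so the values of both comparisons share it and are given side by side only. Past 2-fold in edited cells were 0 of the 10 genes, where 3.21% of 7540 genes were past it, 1.3% higher and 1.91% lower. The mitochondrial pair was higher in the edited line. HSPD1 stood at a coding normalised depth of 1497 in parental and 1960 in edited cells, a log2 ratio of 0.39 at percentile 85.0, and HSPE1 at 324.6 and 387.7, a log2 ratio of 0.26 at percentile 76.2. Both had nearly the same ratio in the first and the last 100 coding bins, 0.38 and 0.39 for HSPD1 and 0.24 and 0.27 for HSPE1.

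The TRiC subunits had log2 ratios between -0.36 and 0.12 in edited cells, with a median of -0.07 against -0.01 for all genes. CCT3 and CCT4, at -0.36 and -0.29, were the lowest, and the remaining values were -0.11 for CCT6A, -0.08 for CCT8, -0.06 for CCT5, -0.05 for CCT7, -0.02 for CCT2 and 0.12 for TCP1. Below 0 were 7 of 8, beside 51.2% of all genes, and this count was the same under the 4 scalings tried. In the first 100 coding bins 6 of 8 were below 0, beside 50.5% of all genes, and in the last 100 again 6 of 8, beside 52.7%. In CCT4 the difference lay mostly in the first 100 bins (-0.46, against -0.11 in the last 100), and in CCT3 it was in both (-0.27 and -0.45).

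All 8 subunits had a higher 5′ share in edited than in parental cells, by log2 ratios of 0.08 (CCT6A) to 0.47 (CCT3) with a median of 0.15 against 0.06 for all genes, of which 53.3% were above 0. With the first 10 bins, with the first 40 bins, or with the mean over all transcripts of a gene, 6 of 8 were above 0 in place of 8. Past 2-fold were 0 of 8, beside 12.4% of all genes, many of which had far less depth than the subunits. HSPE1 had a ratio of 0.90 and HSPD1 of -0.21. In the 5′ UTR 2 of 7 subunits had a share at least 2-fold higher, CCT6A at a log2 ratio of 1.30 and CCT2 at 1.15, beside 8.63% of all genes. These ratios share the small parental depths of 1149 and 1118 bases with the treated ratios of the same genes. The CCT2 call is lost on NM_001198842, with 6.17% in parental and 6.64% in edited cells. In the 3′ UTR it was 0 of 10 genes, beside 8.99%.

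Other chaperone genes were read from lists of the pathways around the chaperonins, which were also drawn up with earlier results known. One list held prefoldin, which hands unfolded actin and tubulin to TRiC, TRiC cofactors of the phosducin-like family, and PDCD5, URI1 and PDRG1. Of its 13 genes 12 were compared, with 0 past 2-fold in either comparison, beside 5.35% and 3.21% of all genes. Their median log2 ratio was 0.03 in treated and 0.14 in edited cells, against -0.15 and -0.01, and in treated cells the 5′ share was above the parental value in 12 of 12, beside 78.8% of all genes, with a median log2 ratio of 0.49 against 0.59. PFDN5, a prefoldin subunit and the highest of them, had a coding normalised depth of 106.5, 100.03 and 112.2. Of CCT6B, a testis homolog of CCT6A, and the chaperonin-like Bardet-Biedl genes MKKS, BBS10 and BBS12, 2 of 4 were compared. MKKS was past 2-fold in edited cells, at 1.08, 2.18 and 1.15, a log2 ratio of 1.01 at a very low level.

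Among cytosolic chaperones induced by HSF1, 3 of 17 were past 2-fold higher in treated cells and 0 lower, beside 0.728% and 4.62% of all genes, with a median of 0.11 against -0.15. They were the inducible HSP70 genes HSPA1A (160.5, 127.8 and 566.7 in normalised depth, log2 ratio 1.82) and HSPA1B (172.1, 143.9 and 614.3, log2 ratio 1.84), which can share reads, and their co-chaperone DNAJB1 (58.1, 68.1 and 173.7, log2 ratio 1.58). The largest ratio of a chaperonin gene, 0.37 for HSPE1, was below these. HSP90AB1, a constitutive HSP90 and the highest of the list, stood at 3104, 3334 and 3011, with a 5′ share ratio of 1.97 in treated cells. In edited cells 1 of 17 was past 2-fold, the small heat shock protein CRYAB (29.3, 4.53 and 26.5, log2 ratio -2.69), beside 3.21% of all genes, and the median was -0.00083 against -0.01. The 5′ share in treated cells was above the parental value in 16 of 17, beside 78.8% of all genes. It was at least 2-fold higher in 8 of 17, beside 27.0%, with a median log2 ratio of 0.996 against 0.59.

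A list of 14 genes held mitochondrial chaperones and proteases and also HSPA14, a cytosolic HSP70. Of these 14 genes 11 were compared, with 0 past 2-fold in either comparison, beside 5.35% and 3.21% of all genes. The medians were -0.38 in treated and 0.18 in edited cells, against -0.15 and -0.01. HSPA9, the HSP70 of the mitochondrial matrix, had 432.7, 512.3 and 328.9 and log2 ratios of -0.40 (treated) and 0.24 (edited). The HSPD1 values were -0.29 and 0.39, on the same sides of 0, and the HSPE1 values 0.37 and 0.26. Of the 11 list genes compared, 10 had a higher 5′ share in treated than in parental cells, beside 78.8% of all genes. It was at least 2-fold higher in 4 of 11, beside 27.0%, with a median log2 ratio of 0.73 against 0.59.

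The genes most like the mean of the 8 subunits were searched for over 4 values, the log2 ratios of coding depth and of 5′ share in both comparisons, among 4540 other genes above the median level. NDUFAB1, the mitochondrial acyl carrier protein, was the nearest at a Euclidean distance of 0.054, followed by the readthrough transcript NME1-NME2 (0.070), which shares reads with its parts, and MRPL15, a protein of the mitochondrial ribosome (0.113). The subunits themselves lay farther from their own mean, between 0.21 (CCT5) and 0.62 (CCT8), and HSPD1 and HSPE1 at 0.66 and 0.999. With so many candidates and 4 values, a close match is a description of these tables only.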

How the data were processed

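The members and gene lists were chosen with earlier results of these data known. Per the labels' protocols, lysis was in cycloheximide, which holds ribosomes in place, and libraries were made by a published profiling protocol. Per the submitters' processing notes, Bowtie2, TopHat2 and the build hg19 were used, without versions. How the 2 libraries of a group (6 in all) entered its table is not known from these sources. The values deposited by the authors are log2(depth + 1) rounded to 2 decimals, in 400 bins per RefSeq transcript. In coding bins the deposited log2 values also carry the value of the row above, which was subtracted: 100% of low coding bins were then whole numbers (tolerance 0.060), against 11.8% to 16.6% as deposited.

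Log2 ratios had a pseudocount of 0.5 and were taken where a transcript reached the lower quartile of transcript depth in both tables (3188 parental, 3698 edited, 2615 treated). Past 2-fold means a log2 ratio of at least 1 or at most -1, with no test behind it. Depth counts bases, so no counting interval was given. Columns of per-sample values left unused numbered 0. Named are all members, list genes past 2-fold or with the highest parental level, and the 3 nearest genes. Levels of CCT7 per kb used NM_006429. Names came from RefSeq (GRCh38.p14), which left 213 to 239 transcripts unnamed. Python 3.11.15, numpy 2.4.6, pandas 2.3.3 and matplotlib 3.10.9 were used, and the steps were tested on simulated data. Alternatives covered scaling, pseudocount, level minimum, bins summed, transcript and the subtraction.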

Additional observations from a re-analysis of the deposited data

How the results depend on the processing

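Of 141 recomputed values, 134 stayed within 1.5-fold of the value reported. Many of the log2 ratios were themselves smaller than 1.5-fold. Such a ratio can reach 0 or change sign and still lie within this limit, so for them the count says little. The count of genes past 2-fold in coding depth, 389 for treated (AZC + MG132) and 242 for edited (CRISPR) against parental cells, was 66 (of 3183 genes) and 37 (of 3470) with a level minimum 4 times higher, 949 (of 9747) and 895 (of 10069) with none, and 230 and 144 with the values as deposited; fewer or more genes are tested under the first pair of settings, and for the last the cause was not tested. The HSPE1 5′ share ratio of treated to parental cells was 0.46 with the first 40 bins in place of 1.22. The TRiC median in treated cells ranged from -0.51 (last 100 bins) to 0.04 (first 100 bins), and HSPD1 from -0.70 to 0.03 with the same bins, so the sign of both rests on the bins summed. The HSPE1 ratio stayed above 0, between 0.28 and 0.58, and in edited cells HSPD1 ranged from 0.38 to 0.41 and HSPE1 from 0.22 to 0.27. CCT7 from its other transcript and levels not divided by length were chosen after seeing the data. No paired analysis was possible because no column belongs to a single library, and leaving out a library could not be run for the same reason. The CCT8 5′ UTR depth was too low for a ratio; the cause was not tested.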
